A study of Homo sapiens with 6 samples.

Results

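The 35 genes described here are immediate early genes and genes switched on by the kinase ERK as feedback on its own pathway. They were taken by symbol from a fixed list: the FOS and JUN subunits of AP-1, ATF3, MYC, the EGR and NR4A factors, the IER genes, 8 dual-specificity phosphatases (DUSP), the SPRY and SPRED inhibitors, ETV4, ETV5 and PHLDA1, with the KLF genes left out. All 35 were found among the 60664 genes of the table, and 32 passed a filter on low counts that left 15867 genes to test. The RNA came from the human cell line SKOV3, which was established from an ovarian carcinoma. Of the 6 cultures, 3 carried a hairpin that knocks down JUP (shJUP 1 to 3), the gene for the junction protein plakoglobin. The other 3 carried the control hairpin (shNC 1 to 3), whose genotype the labels call WT. The labels call the replicates independent and biological, and they give neither the sequence nor the number of the hairpins. The series title places JUP above PDGFB and JAK-STAT signalling, and the comparison asks what differs when JUP is lowered.

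Growth factors, serum and stress activate the RAS-RAF-MEK-ERK cascade and the JNK and p38 kinases. Immediate early genes answer within minutes without new protein synthesis, through factors already bound at their promoters, and their RNAs are short-lived. FOS and JUN proteins pair as the transcription factor AP-1, in which subunits differ in how long they last and in how strongly they activate. DUSP phosphatases, Sprouty (SPRY) and SPRED proteins then damp the kinases, so that their RNA levels are often read as a record of recent or sustained ERK signalling. Epithelial carcinoma lines are known to keep part of this program on in culture.

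Library totals were 17456121 to 19279514 estimated counts, and levels are given as CPM, counts scaled to a common library total, after adjustment between libraries with edgeR's TMM method. JUP stood at 39.9, 93.6 and 24.6 CPM in shJUP 1, 2 and 3, against 104, 133 and 101 CPM in shNC 1, 2 and 3. JUP was thus reduced least in shJUP 2, which kept 83% of the mean control level. Its difference missed the threshold of edgeR's quasi-likelihood test over all 6 libraries (log2 -1.10, SE 0.44, adjusted p = 0.47). The number-2 libraries of both groups stood apart from numbers 1 and 3 and deviated from their group means together (correlation 0.51 over genes). Numbers 1 and 3 were not told apart in this way: shJUP 3 correlated at 0.20 with shNC 3 and at 0.39 with shNC 1. The SKOV3 label was checked against markers. PAX8 (253 to 393 CPM), ERBB2 (2320 to 6907 CPM) and KRT8 (494 to 839 CPM) were present, whereas MUC16, WFDC2 and MSLN stayed under 1 CPM in every library. Of other cell types' markers, 1 of 11 for leukocytes, 7 of 10 for fibroblasts, 7 of 10 for endothelium and 4 of 10 for neural and embryonic kidney lines reached 1 CPM in some library. The endothelial markers summed to 16.8 to 17.6 CPM in shJUP libraries and 8.92 to 17.4 CPM in shNC libraries. In bulk RNA, fewer cells that express a gene and less of its RNA per cell cannot be told apart.

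No member passed the edgeR quasi-likelihood test between shJUP and shNC cells at an adjusted p of 0.05, as was so for all 15867 genes (0% called). With unadjusted p-values under 0.05, edgeR held 3 members, FOSL1, JUNB and IER5, or 9.38% of those tested, where 10% of all genes did. DESeq2 called 0 members and 1.26% of all genes. The median log2 fold change of the 32 members was -0.13, with 12 above 0 (37.5%, beside 48.6% of all genes) and 20 below, against a median of -0.01 over all genes tested. That median followed the number-2 libraries: without them it was 0.11, and between libraries of the same number it was 0.13, -0.16 and -0.03 for numbers 1, 2 and 3. FOSL1 and JUNB, both AP-1 subunits, are described first because DESeq2 called them with the library number as a block. That is 6.25% of the members, beside 4.36% of all genes. The block treats same-number libraries as pairs, although only number 2 stood out as a pair. A larger group of members differed between cultures of different number.

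**Figure D1:**
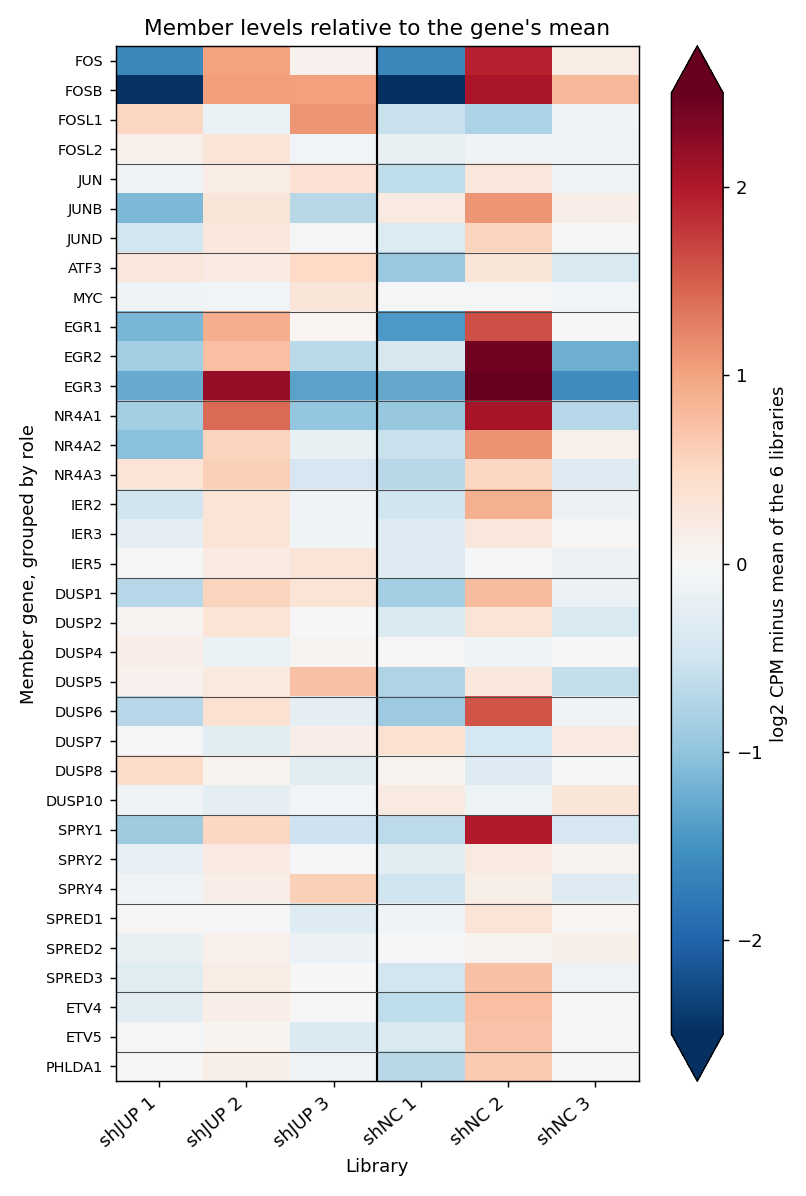
Each row is a member and each column a library, coloured by log2 CPM minus the gene's mean over the 6 libraries; shJUP libraries stand left of the line and shNC libraries right of it, and colours saturate at 2.5. FOS, the EGR genes, NR4A1, DUSP6 and SPRY1 are high in both number-2 libraries, while FOSL1 is high in shJUP 1 and 3 and JUNB is low there.

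Within AP-1, FOSL1 was higher and JUNB lower in each shJUP library than in the control of the same number. FOSL1 (ENSG00000175592) encodes FRA-1, a FOS family protein that accumulates under sustained ERK signalling. It stood at 137, 85.5 and 207 CPM in shJUP 1, 2 and 3, against 65.5, 55.5 and 90.3 CPM in shNC 1, 2 and 3. The shJUP 2 value lies below that of shNC 3, so the groups overlap, but each pair of one number has the shJUP library on top. The log2 fold change was 1.02 (SE 0.32), which missed the edgeR threshold (adjusted p = 0.42) and that of DESeq2 (adjusted p = 0.073). With the library number as a block, FOSL1 passed in DESeq2 (adjusted p = 1.5e-07) and not in edgeR (adjusted p = 0.077). The ratio to the control of the same number was 2.09 (95% counting interval 1.95 to 2.24), 1.54 (1.42 to 1.67) and 2.29 (2.16 to 2.42) for numbers 1, 2 and 3. The ratio was thus smallest for number 2, where JUP was least reduced. The number-2 libraries also stood apart in other genes, and a relation to the JUP level was not tested.

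JUNB (ENSG00000171223) encodes a JUN family protein that often opposes JUN at shared targets. It stood at 66, 176 and 88.9 CPM in shJUP 1, 2 and 3, against 168, 308 and 161 CPM in shNC 1, 2 and 3. The shJUP 2 level lies within the control range, and both number-2 libraries are the highest of their group. The ratio to the same-number control was 0.392 (95% counting interval 0.366 to 0.419), 0.571 (0.547 to 0.596) and 0.552 (0.52 to 0.586). The ratios for numbers 2 and 3 were thus close, although JUP was least reduced in shJUP 2 and lowest in shJUP 3. JUNB had a log2 fold change of -0.95 (SE 0.40) (edgeR adjusted p = 0.49, DESeq2 adjusted p = 0.23). With the block, DESeq2 called it lower (adjusted p = 9.9e-09) and edgeR did not (adjusted p = 0.074). FOSL1 and JUNB are the 2 members that DESeq2 called with the block, or 6.25% of those tested, beside 4.36% of all genes. With the block edgeR called 0 members and 0.0063% of all genes. In GENCODE release 29 the exons of JUNB share 259 bases with HOOK2 on the opposite strand. HOOK2 was at 12.9 to 22.4 CPM in shJUP libraries and 16.3 to 31.2 CPM in shNC libraries, and no source used here says whether counting used strand.

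The other AP-1 subunits overlapped between the groups, except FOSL2. FOSL2, which encodes FRA-2, was at 286, 328 and 252 CPM in shJUP 1, 2 and 3, against 232, 249 and 245 CPM in shNC 1, 2 and 3. All 3 shJUP libraries lay above all 3 controls, by a small margin (log2 0.25, SE 0.12, edgeR adjusted p = 0.54). It was the 1 tested member whose groups did not overlap (3.12%, beside 17% of all genes). JUN, the founding member of its family, was at 450.5, 539 and 616 CPM in shJUP 1, 2 and 3, against 305, 579 and 442 CPM in shNC 1, 2 and 3. It was higher in shJUP for numbers 1 and 3 and about level for number 2 (log2 0.28, SE 0.23, edgeR adjusted p = 0.71). JUND ranged from 31.9 to 52.9 CPM in shJUP and from 35.1 to 65.2 CPM in shNC.

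Per kilobase of exon, a scale on which genes can be set against each other, the make-up of each family differed between libraries. JUN made up 70.5%, 54.9% and 70.6% of the JUN family's CPM per kilobase in shJUP 1, 2 and 3, against 43.6%, 44.5% and 52.6% in shNC 1, 2 and 3. JUNB made up 20.1%, 34.9% and 19.9% in shJUP 1, 2 and 3, against 46.8%, 46% and 37.3% in shNC 1, 2 and 3. JUND kept to 9.47% to 10.2% throughout, so the shares of JUN and JUNB mirror each other and are a single observation. The groups did not overlap in it, whereas the CPM of JUN and of JUNB each overlapped between groups. For shares there is no background over all genes to set beside this. Within the FOS family the share of FOSL1 was 56.5%, 23.3% and 53.4% in shJUP 1, 2 and 3, against 41.8%, 11.2% and 33.3% in shNC 1, 2 and 3, higher in shJUP for each number while the groups overlap. The share of FOS ran the other way, at 11.6%, 47.2% and 23.9% in shJUP 1, 2 and 3, against 18.1%, 66.9% and 36% in shNC 1, 2 and 3. Shares within a family trade off, so a higher FOSL1 level lowers the share of FOS by itself. The level of FOS had ratios of 0.989 and 0.946 in the number-1 and number-3 pairs. These shares rest on the same libraries as the levels and were not tested.

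**Figure D2:**
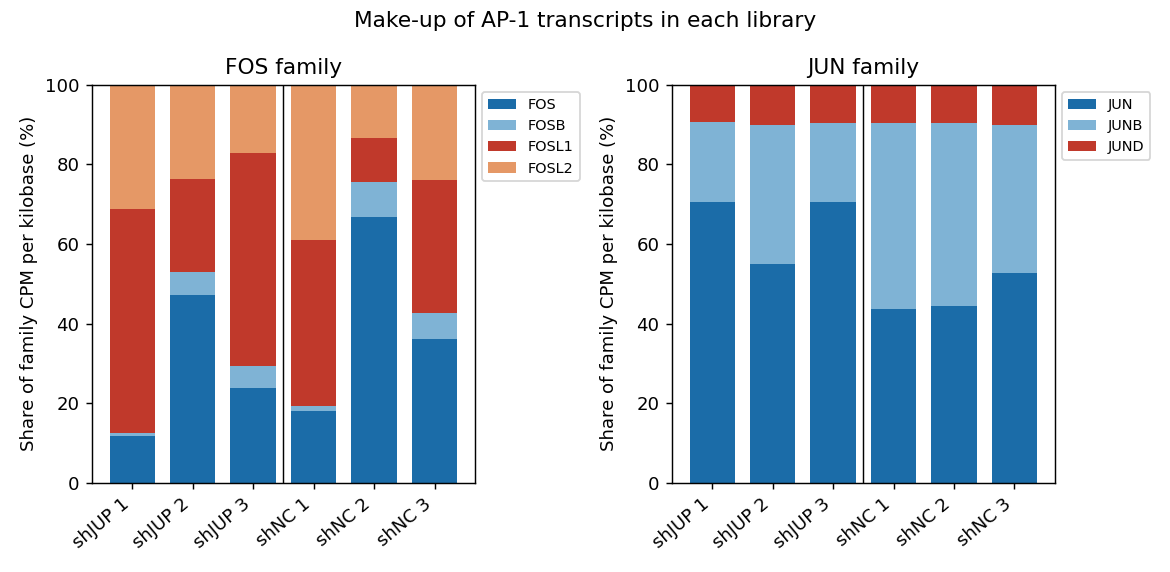
Stacked bars give each subunit's share, in percent, of the CPM per kilobase of its family in each library, FOS family left and JUN family right. JUN takes 54.9% to 70.6% of its family in shJUP and 43.6% to 52.6% in shNC, and FOS takes the most of its family in the number-2 libraries (47.2% in shJUP 2 and 66.9% in shNC 2).

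The classical immediate early genes differed most between cultures of different number. FOS (ENSG00000170345) was at 48.3, 297 and 159 CPM in shJUP 1, 2 and 3, against 48.8, 569.9 and 168 CPM in shNC 1, 2 and 3. EGR1, a zinc finger factor induced by ERK through SRF and its partners, was at 119, 490.1 and 272 CPM in shJUP 1, 2 and 3, against 96.9, 798 and 264 CPM in shNC 1, 2 and 3. FOSB was at 5.52, 63.2 and 62.3 CPM in shJUP 1, 2 and 3, against 5.42, 126 and 53.9 CPM in shNC 1, 2 and 3. For these 3 genes number 1 was lowest and number 2 highest in both groups, and the control exceeded shJUP in the number-2 pair. The ratio of shJUP to shNC for FOS was 0.989 in the number-1 pair (95% counting interval 0.899 to 1.09), 0.521 in the number-2 pair (0.504 to 0.538) and 0.946 in the number-3 pair (0.899 to 0.995). The log2 fold changes over all libraries, -0.64 (SE 0.89) for FOS and -0.40 (SE 0.76) for EGR1, were smaller than their errors, and without both number-2 libraries they were -0.06 and 0.12 by edgeR.

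EGR3, EGR2 and NR4A1 were near the limit of detection except in number 2. EGR3, itself a target of ERK and calcium signals, had 6, 69 and 6 counts in shJUP 1, 2 and 3, against 6, 144 and 5 counts in shNC 1, 2 and 3. EGR2 had 5, 16 and 6 counts in shJUP libraries, against 7, 51 and 4 counts in shNC libraries. Both missed the low-count filter, as did DUSP2, a phosphatase of activated lymphocytes, with 3 to 5 counts per library. NR4A1, an orphan nuclear receptor, was at 1.73, 8.27 and 1.59 CPM in shJUP 1, 2 and 3, against 1.6, 12.9 and 1.9 CPM in shNC 1, 2 and 3. NR4A2 ranged from 0.67 to 2.03 CPM in shJUP and from 0.94 to 3.03 CPM in shNC, and NR4A3 from 1.49 to 2.99 CPM and from 1.22 to 2.82 CPM in the same order. In the number-2 pair alone, EGR3 had a ratio of shJUP to shNC of 0.481 (95% counting interval 0.356 to 0.645) and NR4A1 one of 0.641 (0.52 to 0.787). In numbers 1 and 3 the intervals of both genes held 1, but they also held that gene's number-2 ratio. They were 0.27 to 3.78 and 0.298 to 4.85 for EGR3, and 0.629 to 1.86 and 0.496 to 1.4 for NR4A1. Counts this low cannot tell the pairs apart.

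Counted over the tested members, both number-2 libraries lay above the other 4 for 18 of 32 (56.2%, beside 18.5% of all genes). They lay below the other 4 for 3 (9.38%, beside 18%), namely DUSP4, DUSP7 and DUSP10. The order number 1, number 3, number 2 from low to high held in both groups for 13 members (40.6%, beside 7.75% of all genes). The number-2 library was at least 1.5 times the mean of numbers 1 and 3 in both groups for 10 members (31.2%, beside 6.91% of all genes): FOS, FOSB, JUNB, EGR1, NR4A1, NR4A2, IER2, DUSP1, DUSP6 and SPRY1. This count was made after the values were seen and carries no test, and the labels do not tell what the numbers mark. The excess of number 2 was larger in shNC for 9 of these 10, the exception being JUNB (2.27-fold in shJUP and 1.87-fold in shNC). Other quantities were also highest in number 2 of each group. JUP was 1 of them, ERBB2 was another, and the 10 most abundant genes took 5.29%, 6.8% and 5.23% of counts in shJUP 1, 2 and 3 and 6.57%, 7.8% and 6.59% in shNC 1, 2 and 3. A further one was the share of mitochondrially encoded RNA, at 3.63%, 5.03% and 4.12% in shJUP 1, 2 and 3 and 5%, 5.79% and 4.9% in shNC 1, 2 and 3. The 10 fibroblast markers summed to 292, 69.9 and 28.1 CPM in shJUP 1, 2 and 3 and to 61.3, 522 and 81.8 CPM in shNC 1, 2 and 3. COL1A1 made up most of that sum in shJUP 1 and in the shNC libraries (8.76 to 253 CPM in shJUP libraries and 38.3 to 401 CPM in shNC libraries). The fibroblast markers LUM, DCN and PDGFRA were highest in number 2 of both groups, as were FAP and THY1, which stayed under 1 CPM. COL1A1, COL1A2, COL3A1, PDGFRB and PDPN were highest in number 2 of shNC but in number 1 of shJUP. LUM, for example, was at 1.23, 6.67 and 0.903 CPM in shJUP 1, 2 and 3, against 1.66, 15.5 and 4.41 CPM in shNC 1, 2 and 3. The part of these quantities in the differences between numbers was not tested.

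**Figure D3:**
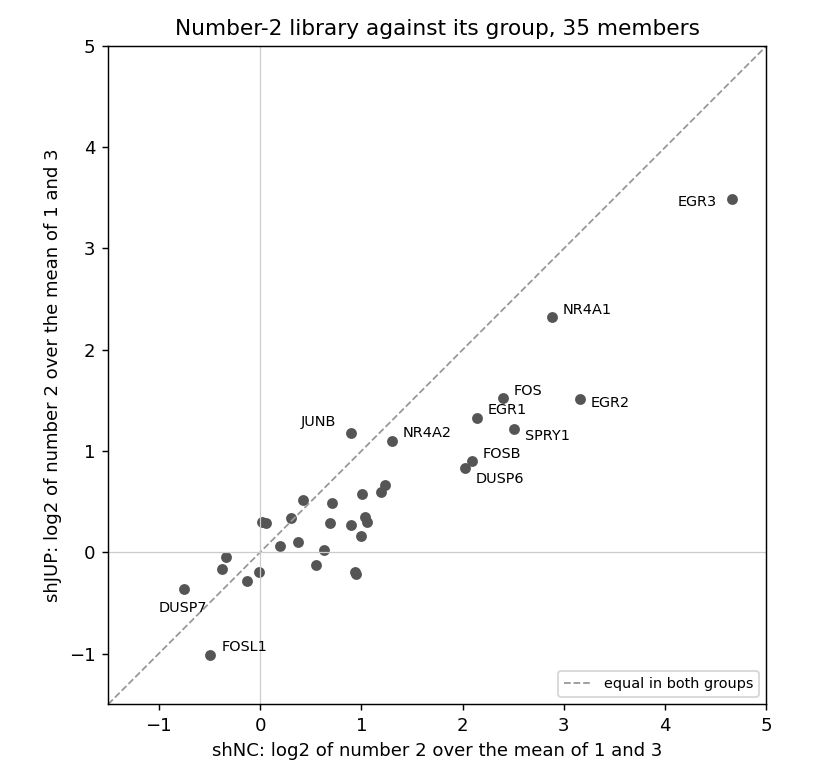
For each of the 35 members, the log2 ratio of the number-2 library to the mean of numbers 1 and 3 is plotted for shJUP (vertical axis) against shNC (horizontal axis), and the dashed line marks equal ratios. EGR3 is farthest out (3.49 in shJUP and 4.66 in shNC), and most raised members lie under the line.

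The promoters of a few of these genes are printed because their levels differ between numbers in the same order. JUNB is printed because it was highest in number 2 of both groups and lower in shJUP in each same-number pair. Its difference between groups missed the edgeR threshold. Each run is RefSeq sequence of GRCh38.p14, from 250 bases before to 50 bases after an annotated start, with 26 of the 35 members found in that table. Capitals mark matches, on either strand, to the CArG box (the site of SRF), TGACGTCA (the cyclic AMP response element) and TGACG (a partial site, which lies inside TGACGTCA). They also mark TGANTCA (a loose form of the AP-1 site, with any base allowed at N) and CCGGAAG (an ETS site). The EGR1 window is chr5:138465229-138465528 on the plus strand, DUSP1 is chr5:172771146-172771445 on the minus strand, FOS is chr14:75278578-75278877 on the plus strand, and JUNB is chr19:12791236-12791535 on the plus strand.
EGR1: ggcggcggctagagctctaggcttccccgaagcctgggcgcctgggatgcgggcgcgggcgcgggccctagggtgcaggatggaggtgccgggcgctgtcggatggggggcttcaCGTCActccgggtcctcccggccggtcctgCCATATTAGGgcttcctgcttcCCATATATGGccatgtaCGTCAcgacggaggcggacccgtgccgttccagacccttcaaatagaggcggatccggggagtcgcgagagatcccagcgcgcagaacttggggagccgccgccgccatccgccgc
DUSP1: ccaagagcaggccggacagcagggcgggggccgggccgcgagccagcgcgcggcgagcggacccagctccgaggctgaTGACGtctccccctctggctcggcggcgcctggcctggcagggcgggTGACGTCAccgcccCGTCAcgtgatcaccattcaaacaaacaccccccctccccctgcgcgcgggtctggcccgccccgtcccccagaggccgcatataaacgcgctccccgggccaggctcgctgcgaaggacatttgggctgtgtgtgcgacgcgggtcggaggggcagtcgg
FOS: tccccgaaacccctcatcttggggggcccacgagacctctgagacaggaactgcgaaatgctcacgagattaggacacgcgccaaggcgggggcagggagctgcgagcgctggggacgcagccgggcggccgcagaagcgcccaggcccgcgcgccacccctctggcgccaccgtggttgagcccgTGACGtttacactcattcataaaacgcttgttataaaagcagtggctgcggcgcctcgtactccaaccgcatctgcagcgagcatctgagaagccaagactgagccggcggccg
JUNB: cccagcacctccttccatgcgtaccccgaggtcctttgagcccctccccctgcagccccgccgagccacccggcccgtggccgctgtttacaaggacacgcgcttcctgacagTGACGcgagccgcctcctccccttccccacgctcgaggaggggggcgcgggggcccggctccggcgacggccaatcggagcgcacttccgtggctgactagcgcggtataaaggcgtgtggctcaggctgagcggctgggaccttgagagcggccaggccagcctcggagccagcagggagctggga
EGR1 holds CArG boxes that begin 105 and 83 bases before the start. A CArG box was found for 2 members, EGR1 and EGR2, and in 1.29% of all 35116 windows. DUSP1 holds TGACGTCA, found for 3 members (with DUSP8 and JUND) and in 1.85% of all windows. FOS and JUNB hold a single TGACG, a match that 24.6% of all windows and 16 of the 36 windows of members have. TGANTCA was found for 3 members and in 7.71% of all windows, and CCGGAAG for 2 members and in 10.3%. For each motif the matching windows of members number the same as the matching members. These are matches of letters in a short window, and binding was not measured. Sites farther from the start were not searched, so a motif missing here may still lie outside the window.

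ATF3 and DUSP5 were higher in shJUP for numbers 1 and 3 and level for number 2. ATF3, a stress-induced factor that pairs with JUN proteins, was at 28.8, 27.2 and 33.1 CPM in shJUP 1, 2 and 3, against 12.4, 29.2 and 18 CPM in shNC 1, 2 and 3. DUSP5, a nuclear phosphatase that acts on ERK alone, was at 24.9, 27.3 and 38.2 CPM in shJUP 1, 2 and 3, against 13.7, 28.1 and 15.3 CPM in shNC 1, 2 and 3. In both genes shNC 2 stood near the shJUP libraries and above its own group. The log2 fold change over all 6 libraries was 0.58 (SE 0.29) for ATF3 and 0.66 (SE 0.30) for DUSP5, with adjusted p-values of 0.56 and 0.53 by edgeR. Without both number-2 libraries DESeq2 called FOSL1 (adjusted p = 9.5e-05), ATF3 (0.0022) and DUSP5 (0.0011) higher and JUNB (2.6e-07) lower, which is 12.5% of the members beside 4.23% of all genes. By edgeR those 4 genes, in the same order with JUNB last, had adjusted p-values of 0.1, 0.095, 0.094 and 0.063 without these libraries, where it called 0 members and 0.308% of all genes. Only 2 libraries a group remain there.

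**Figure D4:**
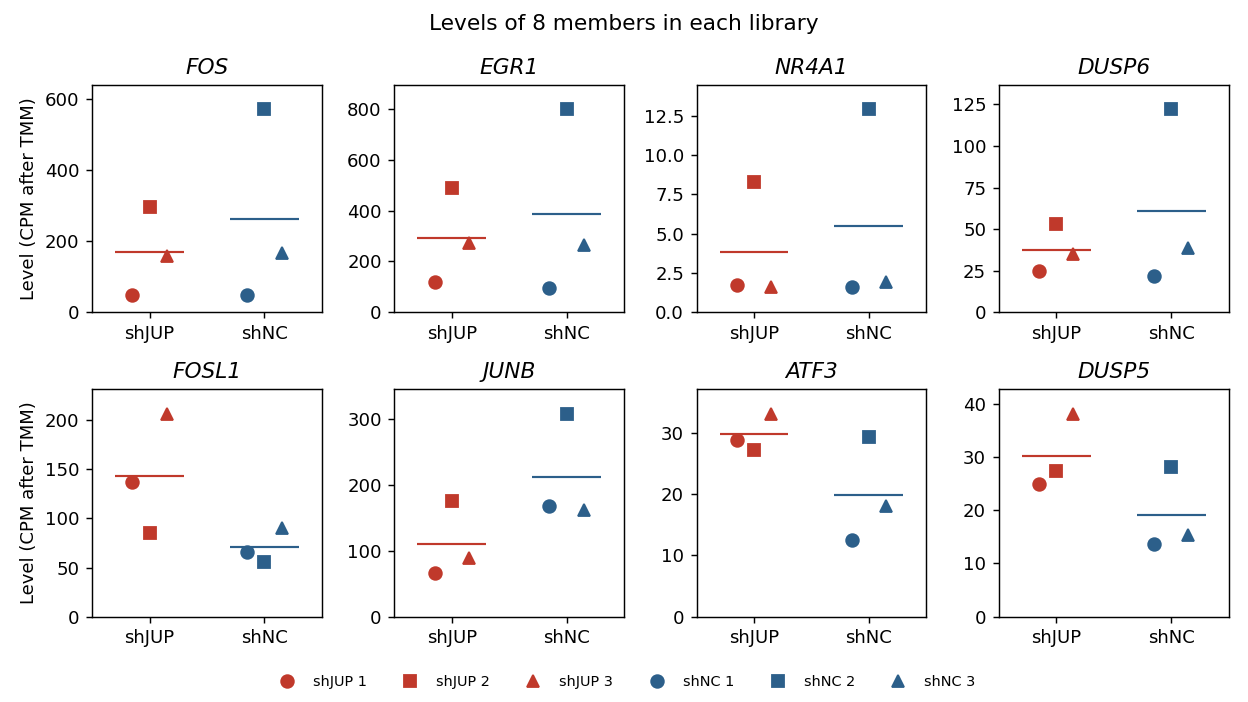
Levels in CPM of 8 members in each library, with the shape giving the library number (circle 1, square 2, triangle 3) and the line the group mean. In the upper row number 2 is the highest of its group for each gene; in the lower row FOSL1 and JUNB separate within each number, and ATF3 and DUSP5 do so for numbers 1 and 3.

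IER5 and SPRY4 were higher in shJUP in all 3 pairs, as were FOSL1 and FOSL2, which makes 4 members (12.5%, beside 21.3% of all genes). IER5, a cofactor of heat shock factor, was at 46.6, 55.2 and 59.3 CPM in shJUP 1, 2 and 3, against 38.2, 46.7 and 43 CPM in shNC 1, 2 and 3 (log2 0.33, SE 0.13, edgeR adjusted p = 0.48). SPRY4, a Sprouty inhibitor of RAS activation, was at 22.5, 26.8 and 36.2 CPM in shJUP 1, 2 and 3, against 16.8, 26.3 and 19.2 CPM in shNC 1, 2 and 3 (log2 0.46, SE 0.23, edgeR adjusted p = 0.56). Lower in all 3 pairs were 6 members (18.8%, beside 22.6% of all genes): FOS, JUNB, JUND, NR4A2, DUSP10 and SPRY1. DUSP10, which acts on JNK and p38, was at 56.7, 51.4 and 57.7 CPM in shJUP 1, 2 and 3, against 70.1, 55.4 and 74.2 CPM in shNC 1, 2 and 3 (log2 -0.27, SE 0.13, edgeR adjusted p = 0.56). Both shares lie under those of all genes.

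Among the phosphatases, members with related targets did not follow each other. DUSP6, which holds ERK in the cytoplasm and dephosphorylates it, was at 24.8, 53 and 34.9 CPM in shJUP 1, 2 and 3, against 21.7, 122 and 38.5 CPM in shNC 1, 2 and 3. Its log2 fold change of -0.69 (SE 0.60) became -0.01 without both number-2 libraries by edgeR. DUSP7, its closest relative, was at 22.5, 19.1 and 26.3 CPM in shJUP 1, 2 and 3, against 30.6, 17.2 and 27.2 CPM in shNC 1, 2 and 3, lowest in number 2 of each group. DUSP1, an inducible nuclear phosphatase of p38 and JNK as well as ERK, was at 105, 254 and 217 CPM in shJUP 1, 2 and 3, against 95.7, 295 and 156 CPM in shNC 1, 2 and 3. DUSP4, which is close to DUSP1 in structure, kept within 75.2 to 94.3 CPM in shJUP and 78.8 to 86.6 CPM in shNC. The low level of number 2 for DUSP7 and DUSP4 is the reverse of that for DUSP6 and DUSP1. DUSP8 was at 5.52 to 9.09 CPM in shJUP and 5.31 to 6.91 CPM in shNC.

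Among the Sprouty, SPRED and ETV genes, SPRY1 followed the FOS pattern, at 2.96, 7.9 and 3.82 CPM in shJUP 1, 2 and 3, against 3.48, 21.6 and 4.08 CPM in shNC 1, 2 and 3. SPRY2 spanned 19.5 to 26.1 CPM in shJUP and 18.4 to 26.1 CPM in shNC. SPRED1 (54.2 to 69 CPM in shJUP and 63.3 to 85.8 CPM in shNC), SPRED2 (76.4 to 95.4 CPM and 85 to 96.2 CPM in that order) and SPRED3 (7.76 to 11 CPM and 6.91 to 16.1 CPM) all had a fold change below 0, by less than 0.25 on the log2 scale. ETV4 and ETV5, ETS factors often used as readouts of ERK output, averaged 16.9 ± 2.49 and 55.5 ± 8.48 CPM in shJUP, against 18.9 ± 9.13 and 67.5 ± 27.2 CPM in shNC (SD, n = 3 each). Their highest library was shNC 2, at 28.9 CPM for ETV4 and 97.9 CPM for ETV5.

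Of the genes left, MYC, IER2, IER3 and PHLDA1, none differed between groups beyond the replicate spread. MYC, the growth factor-induced oncogene, was at 92.2, 93.9 and 122 CPM in shJUP 1, 2 and 3, against 96.9, 95 and 94.5 CPM in shNC 1, 2 and 3, and did not follow the number-2 pattern. IER3 spanned 302 to 456 CPM in shJUP and 287 to 438 CPM in shNC, and was the highest member per kilobase in both groups (268 ± 60.2 and 269 ± 55.7 CPM per kilobase, SD, n = 3 each). JUN came next (151 ± 23.4 and 125 ± 38.6 CPM per kilobase in the same order). IER2 was at 125, 220.3 and 166 CPM in shJUP 1, 2 and 3, against 124, 323 and 159 CPM in shNC 1, 2 and 3. PHLDA1, an ERK-induced protein with a PH-like domain, was at 669, 722 and 621 CPM in shJUP 1, 2 and 3, against 407, 1038 and 632 CPM in shNC 1, 2 and 3, so that its spread lay in the controls.

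**Figure D5:**
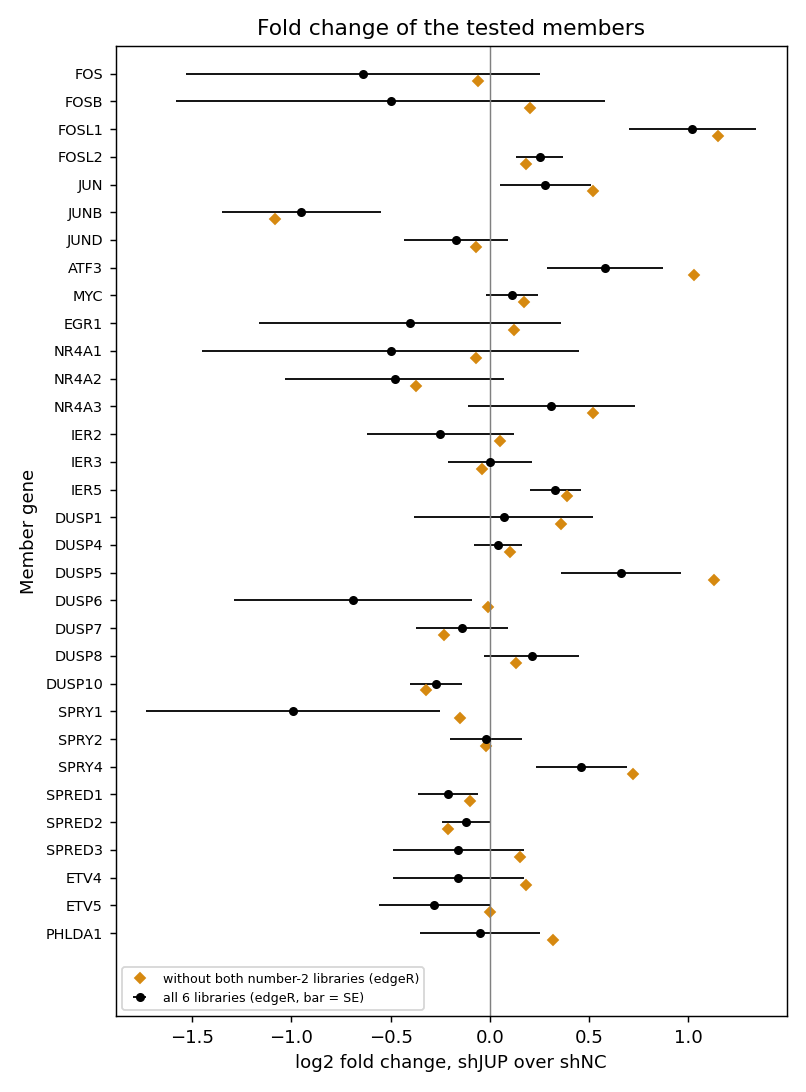
Points give the log2 fold change, shJUP over shNC, of the 32 tested members over all 6 libraries with its SE, and diamonds the value without both number-2 libraries. FOSL1 and JUNB keep their side and size (1.02 and -0.95 with all libraries), whereas FOS moves to -0.06 and DUSP6 to -0.01 without the number-2 libraries.

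The cascade above these genes and the factors that bind them were read from lists, which were chosen with earlier results of these data known. Of 31 genes of the RAS-ERK cascade, edgeR and DESeq2 called 0 and the median log2 fold change was -0.01. With the block DESeq2 called 2 lower and edgeR 0. ERBB2, the receptor kinase amplified in SKOV3, was at 3338 ± 1053 CPM in shJUP, against 5175 ± 1503 CPM in shNC (SD, n = 3 each; log2 -0.63, DESeq2 adjusted p = 0.32 without and 2.2e-04 with the block, edgeR adjusted p = 0.12 with it). Of 20 genes of the JNK, p38 and ERK5 cascades 0 were called by either tool, or 1 lower by DESeq2 with the block, and MAP2K3, a p38 kinase kinase, had the smallest p-value (log2 0.47, SE 0.14, edgeR adjusted p = 0.41). Of 22 upstream factors, DESeq2 called ETS2 higher and ELK4, an SRF partner, lower, and with the block 1 higher and 2 lower. ETS2 was at 161 ± 18.3 CPM in shJUP, against 100.5 ± 9.33 CPM in shNC (SD, n = 3 each; log2 0.68, SE 0.13, DESeq2 adjusted p = 0.0011 and edgeR adjusted p = 0.33). Of 19 tested bZIP partners 1 was called by DESeq2: JDP2, which represses AP-1 as a partner of JUN, was lower, at 18 ± 3.43 CPM in shJUP, against 32.8 ± 3.49 CPM in shNC (SD, n = 3 each; log2 -0.87, SE 0.17, DESeq2 adjusted p = 0.0032). With the block DESeq2 called 2 of these partners lower, JDP2 and ATF4. Of all genes, DESeq2 called 1.26% without the block and 4.36% with it, in either direction.

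Genes with like regulation that are not members were read in the same way. Of 32 other immediate early genes, DESeq2 called HBEGF higher and MCL1 lower, and with the block 5 higher and 2 lower. HBEGF, a ligand of EGFR, was at 23.1 ± 5.9 CPM in shJUP, against 9.1 ± 0.898 CPM in shNC (SD, n = 3 each; log2 1.34, SE 0.22, DESeq2 adjusted p = 5.6e-05 and edgeR adjusted p = 0.33). MCL1, a survival protein of the BCL2 family, was at 474 ± 19.3 CPM in shJUP, against 672 ± 44.9 CPM in shNC (SD, n = 3 each; log2 -0.50, SE 0.10, DESeq2 adjusted p = 0.0015). Of 22 tested further ERK output genes, DESeq2 called 3 higher and 0 lower, and with the block 5 higher and 4 lower. The 3 were TGFA (log2 0.65, SE 0.10), UPP1 (1.21, SE 0.22) and KANK1 (0.54, SE 0.13). TGFA, also a ligand of EGFR, was at 160.3 ± 6.17 CPM in shJUP, against 102 ± 5.63 CPM in shNC (SD, n = 3 each). Of 19 tested AP-1 target genes DESeq2 called IL6 and IL11 higher and 0 lower, and with the block 3 higher and 1 lower. MMP10, a matrix protease in that list, had a log2 fold change of -1.98 (SE 0.66). It was at 5.97, 16.2 and 14.4 CPM in shJUP 1, 2 and 3, against 63.1, 11.2 and 69.9 CPM in shNC 1, 2 and 3. The number-2 pair thus went the other way. Its DESeq2 adjusted p was 0.26 over all libraries, 0.37 with the block and 5.4e-04 without both number-2 libraries. Of 11 other dual-specificity phosphatases and 22 MYC target genes DESeq2 called 0, and with the block 1 higher in each, DUSP3 (adjusted p = 0.036, edgeR 0.19 with the block) and ODC1 (adjusted p = 6.4e-06, edgeR 0.084 with the block). Over all genes DESeq2 called 0.674% higher and 0.586% lower, and with the block 4.36% in either direction. These lists were chosen with earlier results of these data known, so the shares are no test of them. The edgeR test called 0 genes in each of these lists with and without the block, and with 3 libraries a group p-values cover the spread between these cultures.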

How the data were processed

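The authors deposited estimated counts per Ensembl gene, with no scaling applied. The submitters' processing notes name STAR 2.7.9a, RSEM 1.3.3, edgeR 3.32.1 and DESeq2 1.26.0 but not what each did. Per the labels' protocols, oligo(dT) beads selected the messenger RNA, and a DNBSEQ instrument read it. Genome build, annotation and strand setting: not given in the sources used here. Of 60695 rows, 31 held no gene ID and were left out, and 60463 of 60664 IDs matched a symbol. Counts were rounded to whole numbers. The main test was edgeR 4.0.16 (R 4.3.3): filterByExpr, TMM, quasi-likelihood, two-sided, Benjamini-Hochberg adjustment over all 15867 genes, threshold 0.05, all 6 libraries. The design assumed this unit. SE is the size of the log2 fold change divided by the root of F. DESeq2 1.42.0 and limma-voom (limma 3.58.1) were alternatives. The steps were tested on simulated counts.

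Members and lists were chosen with earlier results of these data known. All members could be named; of other genes, JUP, the 3 with the smallest p in each list and those called by edgeR or DESeq2. Markers, JUP and genes overlapping a member were named as checks. The correlation of same-number libraries' deviations was 0.14 for number 1, 0.51 for number 2 and 0.20 for number 3, over the limit for treating the labels' numbers as pairs, so blocked values are given where they change a call. Different-number libraries reached 0.39 (shJUP 3 with shNC 1) and 0.15 (shJUP 1 with shNC 3), so only number 2 stood out as a pair. CPM per kilobase used exon lengths of GENCODE release 29. In that annotation 9 members share exon bases with another gene, and they are uncertain to that extent. Counting intervals are exact binomial at 95% and cover counting error only.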

Additional observations from a re-analysis of the deposited data

How the results depend on the processing

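Over all genes, 0 passed in the edgeR test, 5 with no filter on low counts and 200 in DESeq2. With the replicate block, which treats same-number libraries as pairs, 1 gene passed in edgeR and 692 in DESeq2; without both number-2 libraries the counts were 49 and 673. Leaving out 1 library at a time, which leaves 1 group with 2 libraries, gave 0 to 502 genes over both tools. Of the members, 0 passed in the edgeR test, 2 with the replicate block in DESeq2 (FOSL1 and JUNB), 4 without both number-2 libraries in DESeq2, and 0 to 2 with 1 library left out. FOSL1 and JUNB passed without shJUP 2 in DESeq2, where 502 genes passed in the whole table. ATF3 and DUSP5 passed without shNC 2 in DESeq2, where 318 genes passed. Each of these pairs is 6.25% of the tested members. The median log2 fold change of the members was -0.13, turned to 0.11 without both number-2 libraries in either tool, and ranged from -0.23 to 0.28 with 1 library left out, the highest without shNC 2. JUP had a log2 fold change of -1.10, which passed at -1.30 with the replicate block in DESeq2 and at -1.66 without both number-2 libraries in DESeq2, and ranged from -1.80 to -0.75 with 1 library left out. The value of -1.80 came without shJUP 2, where JUP passed in DESeq2 (adjusted p = 2.9e-09) and not in edgeR (adjusted p = 0.16). Direction was kept by 13 members under all 22 alternatives, among them FOSL1 (0.66 to 1.29 with 1 library left out) and JUNB (-1.46 to -0.57), and 19 turned in at least 1, none of them past the edgeR test. The share of all genes that kept direction was not computed, so there is no background to set beside this. Without both number-2 libraries, FOSB turned to 0.20 in edgeR and 0.19 in DESeq2, EGR1 to 0.12, IER2 to 0.05, SPRED3 to 0.15, ETV4 to 0.18 and PHLDA1 to 0.32 in both, and ETV5 to 0.00 in edgeR. PHLDA1 also turned to 0.06 in limma-voom, 0.05 with the replicate block and 0.06 with the block in DESeq2. IER3 turned to 0.00 with RLE scaling, no filter, DESeq2 and the block in DESeq2, and to 0.03 with library totals only, where SPRY2 turned to 0.02. With 1 library left out, the log2 fold changes that crossed 0 ranged from -1.34 to 0.64 for FOS, -1.04 to 0.56 for FOSB, -0.36 to 0.11 for JUND, -0.04 to 0.19 for MYC, -0.98 to 0.71 for EGR1, -1.72 to 1.15 for NR4A1, -0.95 to 0.09 for NR4A2, -0.50 to 0.27 for IER2, -0.20 to 0.16 for IER3, -0.23 to 0.61 for DUSP1, -0.03 to 0.14 for DUSP4, -1.09 to 0.32 for DUSP6, -0.35 to 0.03 for DUSP7, -1.52 to 0.38 for SPRY1, -0.15 to 0.10 for SPRY2, -0.39 to 0.28 for SPRED3, -0.44 to 0.29 for ETV4, -0.50 to 0.09 for ETV5 and -0.32 to 0.37 for PHLDA1. The 6 DESeq2 fits with 1 library left out were chosen after the data were seen, and the cause of these shifts was not tested.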

Other observations

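The lists of other immediate early genes and of MYC target genes, which hold no member, stood apart in the number-2 libraries as well, counted after the values were seen and with no test. Both number-2 libraries were above the other 4 for 14 of 32 tested other immediate early genes and for 1 of 22 MYC target genes. They were below the other 4 for 2 of the other immediate early genes and for 14 of the MYC target genes. Over all genes these shares were 18.5% above and 18% below. MYC itself kept within 92.2 to 122 CPM in shJUP and 94.5 to 96.9 CPM in shNC.

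The MYC target genes had a median log2 fold change of 0.19 between shJUP and shNC, with 18 above 0 and 4 below, against -0.01 over all genes. This list too was chosen with earlier results of these data known, and the shift was not tested. ODC1, which encodes ornithine decarboxylase, had the smallest p among them, at 138 ± 58.3 CPM in shJUP, against 76.2 ± 24.4 CPM in shNC (SD, n = 3 each; log2 0.85, SE 0.37). Its adjusted p was 0.5 by edgeR, 0.26 by DESeq2, and with the library number as a block 6.4e-06 by DESeq2 and 0.084 by edgeR.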
